A study of Mus musculus with 4 samples.

Results

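The genes described here are 10 proximal tubule genes chosen by name, with earlier results of these data known. All 10 were found in the table of 54078 features and all 10 passed the filter that left 15414 genes for testing. They encode carriers for glucose and monocarboxylates (Slc5a1, Slc5a2, Slc2a2, Slc5a12), carriers for phosphate (Slc34a1, Slc34a3), carriers for sodium and bicarbonate (Slc9a3, Slc4a4) and the endocytic receptors Lrp2 and Cubn. The proximal tubule takes back most of the glucose, phosphate, bicarbonate and small protein that the glomerulus lets through. Carriers of the apical brush border bring sodium in together with sugar, phosphate or lactate, carriers of the basolateral side pass sugar and bicarbonate on to the blood, and megalin and cubilin carry filtered protein into endosomes. Ischemia-reperfusion (I/R) injures this segment in particular, and its transport genes are widely used as a sign of tubular differentiation.

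RNA-sequencing was done on whole-kidney RNA from adult male mice at day 3 after both renal pedicles had been clamped for 30 min. The KO group held Apela flox/flox mice with Cre under the Ksp-cadherin promoter, which is active in renal tubular epithelial cells, and the WT group held Apela flox/flox littermates without Cre, so that both groups carry the floxed alleles and both were injured. Each group has 2 libraries and each library is a pool of RNA from 3 mice, so that n counts pools. All 4 libraries are injured kidney, and the effect of injury itself on these genes was not analysed here. Some mice died before harvest, and the study reports significantly lower survival after bilateral I/R in KO than in WT mice. The pools hold mice that were alive at harvest, so the loss before harvest was not equal between the groups. Its part in the differences between the KO and WT pools was not tested. The labels give the strain as C57BL/6 x 129S4/SvJae where the study's methods give a C57BL/6 background. The comparison was made to find pathways that differ in the kidneys of mice lacking tubular elabela, the peptide encoded by Apela, under I/R.

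The pools held between 16045724 and 16927742 reads on genes, of which 5.20% to 6.45% were mitochondrial. The deleted gene itself, Apela, was measured at 5.27 and 4.57 FPKM (WT) and at 0.536 and 0.245 FPKM (KO). Although the series text also speaks of adipose tissue, the kidney was borne out by its markers, with Umod at 788 to 1133 FPKM, while Adipoq was at 0 in 3 pools and at 0.268 in KO replicate 2 and Ucp1 was at 0 in all 4.

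The 10 genes together took 0.869% and 0.731% of the reads in WT against 0.537% and 0.634% in KO. These were 141570 and 117326 reads in WT and 90922 and 106356 in KO. Slc34a1 alone gave 67471 and 55398 of them in WT and 28555 and 46237 in KO. Of the 10, 8 had a lower fitted mean in the KO pools, as did 48.6% of all tested genes, and in 6 both KO pools lay below both WT pools: Slc34a1, Slc34a3, Slc5a2, Slc5a12, Slc2a2 and Lrp2. Over all 15414 tested genes this order was seen in 18.1%. The reverse order was seen in 0 of the 10, against 19.7% of all genes. These genes share a cell type, so they are not independent of each other. They were also chosen with earlier results of these data known, so the counts are description and not a test. No member passed the threshold of an adjusted p-value under 0.05 (limma with Benjamini-Hochberg adjustment), nor did any of the 15414 genes (0%), and the adjusted p-values of the members lay between 0.785 and 0.937. The smallest adjusted p of any tested gene was 0.466 (limma). Apela, the deleted gene, did not pass either, so a member that fails this threshold cannot be called unchanged. At an unadjusted p under 0.05 there were 3 members, Slc5a2, Slc34a3 and Lrp2, all lower in KO, where 3.03% of all genes were lower by that measure. None was higher, where 3.29% of all genes were. With voom weights on recovered reads the count of members past the adjusted threshold was also 0. At an unadjusted p the members then numbered 2 (970 of all genes). With the replicate number as a block they numbered 1 (932 of all genes). The median log2 fold change of the 10 members was -0.26, and that of all tested genes was 0.0071. In bulk tissue, fewer proximal tubule cells and less RNA per cell cannot be told apart.

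**Figure D1:**
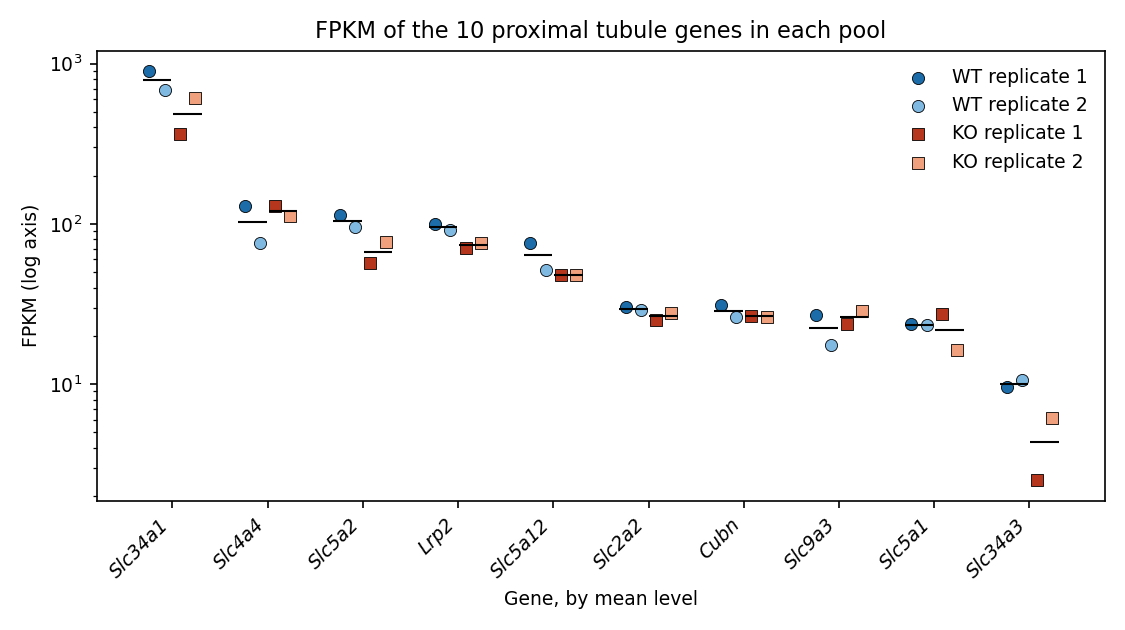
FPKM of the 10 genes (log axis) in the 2 WT pools (blue circles) and the 2 KO pools (red squares), ordered by mean level, with a line at each group mean. Both KO squares lie below both WT circles for Slc34a1, Slc5a2, Lrp2, Slc5a12, Slc2a2 and Slc34a3, and the groups overlap for the other 4.

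The phosphate carriers had the largest fitted differences of the 10 genes with all 4 pools. That of Slc34a3 stayed the largest with any pool left out. Slc34a1 fell behind other members without WT replicate 1 or without KO replicate 1. Slc34a1 (NaPi-IIa, ENSMUSG00000021490, chr13:55398187-55415592, plus strand, GRCm38) is the main sodium-phosphate cotransporter of the brush border, which parathyroid hormone and FGF23 remove from the membrane. It stood at 897.8 and 688.7 FPKM in WT replicates 1 and 2 and at 365.1 and 609.0 in KO replicates 1 and 2. The groups did not overlap, but KO replicate 2 lay nearer to WT replicate 2 than to KO replicate 1. WT averaged 793 ± 148 FPKM (SD, n = 2), whereas KO averaged 487 ± 172 (SD, n = 2), 61.4% of the WT mean. The log2 fold change was -0.74 (standard error 0.33, 95% interval -1.62 to 0.14, limma adjusted p = 0.797). The difference between the groups on this scale was the same size, within rounding, as the 0.74 between the KO pools. Leaving out KO replicate 1 gave -0.37, and leaving out KO replicate 2 gave -1.11.

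Slc34a3 (NaPi-IIc, ENSMUSG00000006469, chr2:25228898-25234364, minus strand) is the third member of the same carrier family and moves phosphate with sodium without net charge. It was the least abundant of the 10, with 9.58 and 10.6 FPKM in WT against 2.51 and 6.14 FPKM in KO. These rest on 363, 428, 99 and 235 reads. Both KO pools lay below both WT pools, and KO replicate 2 was 2.45 times KO replicate 1. WT averaged 10.1 ± 0.687 FPKM (SD, n = 2), whereas KO averaged 4.32 ± 2.57 (SD, n = 2), a log2 fold change of -1.24 (standard error 0.39, 95% interval -2.27 to -0.20, limma adjusted p = 0.785). Leaving out KO replicate 1 gave -0.67 and leaving out KO replicate 2 gave -1.81. The ratio of Slc34a3 to Slc34a1 within a pool was 0.0107 and 0.0153 in WT and 0.00688 and 0.0101 in KO. The groups did not overlap in this ratio, and an exact two-sided permutation test gave p = 0.33, the smallest that 2 pools against 2 allow.

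The start regions of both phosphate carriers are shown because these genes had the largest fitted differences with all 4 pools. The sequences are RefSeq windows of 300 bases on GRCm38.p6, from 250 bases before to 50 after the start site, written 5′ to 3′ on the gene's strand, chr13:55399398-55399697 for Slc34a1 and chr2:25234185-25234484 (minus strand) for Slc34a3. Capitals mark matches, on either strand, to CAAAGT (the start of a sequence bound by HNF4A), TATAAA (the TATA box) or GGGCGG (the GC box).
Slc34a1: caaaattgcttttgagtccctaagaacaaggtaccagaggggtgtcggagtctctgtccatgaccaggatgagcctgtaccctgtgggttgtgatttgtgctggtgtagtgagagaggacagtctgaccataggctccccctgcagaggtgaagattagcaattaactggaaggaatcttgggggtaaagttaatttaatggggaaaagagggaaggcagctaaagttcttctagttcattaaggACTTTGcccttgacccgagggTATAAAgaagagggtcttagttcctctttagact
Slc34a3: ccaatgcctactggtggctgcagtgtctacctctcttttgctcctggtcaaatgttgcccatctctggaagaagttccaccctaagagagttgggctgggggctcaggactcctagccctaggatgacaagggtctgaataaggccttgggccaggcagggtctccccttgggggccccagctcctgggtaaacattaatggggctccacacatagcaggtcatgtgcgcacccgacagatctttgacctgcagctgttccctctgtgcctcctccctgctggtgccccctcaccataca
Slc34a1 held CAAAGT at -5 on the minus strand and TATAAA at 17 on the plus strand, counted from the start site. The Slc34a3 window held no match to any of the 3. The RefSeq start sites used here for Slc34a1, for Slc34a3 and, further below, for Lrp2 lie downstream of the 5′ ends of these genes in the deposited gene positions. CAAAGT is found in 14.4% of the 32851 windows of this length, TATAAA in 13.6% and GGGCGG in 35.7%, with overlapping matches allowed. The start-site table held 8 of the 10 members in 9 windows, and CAAAGT was found in 4 of these, TATAAA in 1 and GGGCGG in 3. Such matches describe letters and not binding. Hnf4a itself stood at 154 and 136 FPKM in WT and at 154 and 144 in KO. The groups overlapped for this gene.

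Among the glucose carriers, Slc5a2 (SGLT2, ENSMUSG00000030781, chr7:128265657-128272430, plus strand) was lower in both KO pools than in either WT pool. It encodes the sodium-glucose cotransporter of the early proximal tubule, which takes up most of the filtered glucose and is the target of the gliflozin drugs. The WT values were 113.7 and 95.3 FPKM and the KO values 56.9 and 77.1, without overlap. WT averaged 104 ± 13.0 FPKM (SD, n = 2), whereas KO averaged 67.0 ± 14.3 (SD, n = 2), 64.2% of the WT mean. The log2 fold change was -0.65 (standard error 0.20, 95% interval -1.18 to -0.11, limma adjusted p = 0.785). This was 1.49 times the larger of the 2 differences between replicates. It ranged from -0.86 to -0.43 with each pool left out in turn, the value nearest 0 being that without KO replicate 1.

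Slc5a1 (SGLT1, ENSMUSG00000011034, chr5:33104219-33162870, plus strand), the high-affinity cotransporter that takes up the glucose left over in the later proximal tubule, overlapped between the groups. In FPKM, WT gave 23.6 and 23.2 and KO gave 27.5 and 16.2, so that the KO pools lay on either side of the WT pools. The fitted log2 fold change came to -0.14 (standard error 0.27, 95% interval -0.84 to 0.56, limma adjusted p = 0.937). Leaving out KO replicate 2 turned it to 0.23, and leaving out KO replicate 1 gave -0.51. The ratio of Slc5a1 to Slc5a2 was 0.207 and 0.244 in WT and 0.484 and 0.210 in KO, and the groups overlapped (exact two-sided permutation p = 0.667). KO replicate 1 alone stood above the other 3 pools in this ratio.

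Slc2a2 (GLUT2, ENSMUSG00000027690, chr3:28697903-28731359, plus strand), the basolateral exit for glucose, varied least of the 10. It stood at 30.1 and 28.8 FPKM in WT replicates 1 and 2 and at 25.3 and 27.9 in KO replicates 1 and 2. Both KO pools lay below both WT pools by a narrow margin, with a log2 fold change of -0.15 (standard error 0.12, 95% interval -0.45 to 0.16, limma adjusted p = 0.840). Leaving out KO replicate 1 gave -0.075, and the other pools left out in turn gave values down to -0.22. The ratio of this basolateral carrier to apical Slc5a2 was 0.264 and 0.302 in WT and 0.444 and 0.362 in KO, without overlap (exact two-sided permutation p = 0.33). Slc5a12 (ENSMUSG00000041644, chr2:110597298-110647779, plus strand) encodes SMCT2, a low-affinity carrier for lactate and other monocarboxylates of the early proximal tubule. The WT values were 76.1 and 51.2 FPKM and the KO values 47.7 and 48.1. The KO pools were close together, and WT replicate 2 lay just above them, so that the log2 fold change of -0.38 (standard error 0.22, 95% interval -0.95 to 0.19, limma adjusted p = 0.798) became -0.096 without WT replicate 1.

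Neither of the carriers for sodium and bicarbonate had a lower mean in KO. Slc9a3 (NHE3, ENSMUSG00000036123, chr13:74121457-74169442, plus strand) is the apical sodium-hydrogen exchanger. In FPKM, WT gave 27.0 and 17.6 and KO gave 23.8 and 28.7. Slc4a4 (NBCe1, ENSMUSG00000060961, chr5:88886818-89239653, plus strand) is the basolateral carrier that returns bicarbonate with sodium to the blood. It stood at 129.2 and 76.2 FPKM in WT replicates 1 and 2 and at 129.3 and 112.6 in KO replicates 1 and 2. For both genes WT replicate 2 was the lowest pool and the other 3 were close together. The log2 fold change was 0.26 (standard error 0.24, 95% interval -0.38 to 0.89, limma adjusted p = 0.859) for Slc9a3 and 0.28 (standard error 0.29, 95% interval -0.47 to 1.04, limma adjusted p = 0.870) for Slc4a4. Without WT replicate 2 these were -0.046 and -0.098. The ratio of the apical to the basolateral carrier was 0.209 and 0.231 in WT and 0.184 and 0.255 in KO, with the groups overlapping.

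Of the endocytic receptors, Lrp2 was lower in both KO pools than in either WT pool, whereas the groups overlapped for Cubn. Lrp2 (megalin, ENSMUSG00000027070, chr2:69424340-69586065, minus strand) is the large receptor that binds filtered proteins, vitamin carriers and many drugs. The WT values were 99.9 and 91.0 FPKM and the KO values 70.4 and 76.3, and the replicates lay close together in both groups. WT averaged 95.4 ± 6.24 FPKM (SD, n = 2), whereas KO averaged 73.3 ± 4.12 (SD, n = 2), 76.8% of the WT mean. The log2 fold change was -0.38 (standard error 0.13, 95% interval -0.73 to -0.029, limma adjusted p = 0.785), 2.84 times the larger difference between replicates and the largest such multiple among the 10 members. With each pool left out in turn it stayed between -0.44 and -0.31. Of the 10 members, 4 had a group difference above both differences between replicates (Lrp2, Slc5a2, Slc34a3 and Slc2a2), where 24.4% of all tested genes did.
Cubn (cubilin, ENSMUSG00000026726, chr2:13276338-13491813, minus strand), which binds albumin and vitamin carriers and depends on amnionless and megalin for its uptake, stood at 31.2 and 26.1 FPKM in WT and at 26.8 and 26.3 FPKM in KO. The KO pools lay within the range of the WT pools, and the log2 fold change was -0.10 (standard error 0.13, 95% interval -0.46 to 0.25, limma adjusted p = 0.899). Without WT replicate 1 this fold change turned to 0.026. The ratio of Cubn to Lrp2 was 0.313 and 0.286 in WT and 0.380 and 0.345 in KO, without overlap (exact two-sided permutation p = 0.33). The ratio of Slc5a2 to Lrp2 was 1.14 and 1.05 in WT and 0.808 and 1.01 in KO, likewise without overlap.

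The start region of Lrp2 is shown to set it beside those of the phosphate carriers. It is the RefSeq window chr2:69585980-69586279 of GRCm38.p6, minus strand, in the same layout and with the same 3 motifs in capitals.
Lrp2: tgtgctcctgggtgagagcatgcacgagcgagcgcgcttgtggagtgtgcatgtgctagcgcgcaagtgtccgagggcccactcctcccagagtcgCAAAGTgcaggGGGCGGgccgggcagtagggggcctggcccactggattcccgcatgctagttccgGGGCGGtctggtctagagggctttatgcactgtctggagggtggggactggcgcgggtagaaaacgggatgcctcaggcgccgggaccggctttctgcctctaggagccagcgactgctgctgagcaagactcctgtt
It holds CAAAGT at -154 and GGGCGG at -143 and -88, all on the gene's strand. Its GC content was 65.0%, against 46.7% for Slc34a1, 57.7% for Slc34a3 and a median of 52.7% over all windows.

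**Figure D2:**
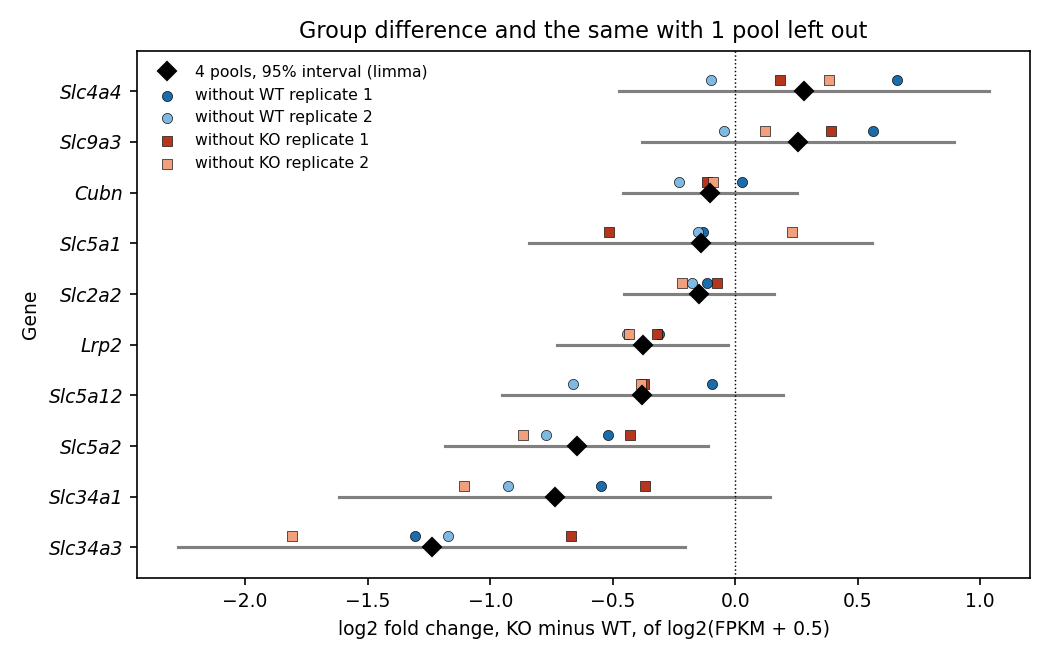
Log2 fold change of each gene (diamond) with its 95% interval from limma (grey line), and the value with 1 of the 4 pools left out (coloured points, named in the key). Lrp2 stays between -0.44 and -0.31, Slc34a1 and Slc34a3 move nearest to 0 without KO replicate 1, and Slc4a4, Slc9a3, Slc5a1 and Cubn cross 0.

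**Figure D3:**
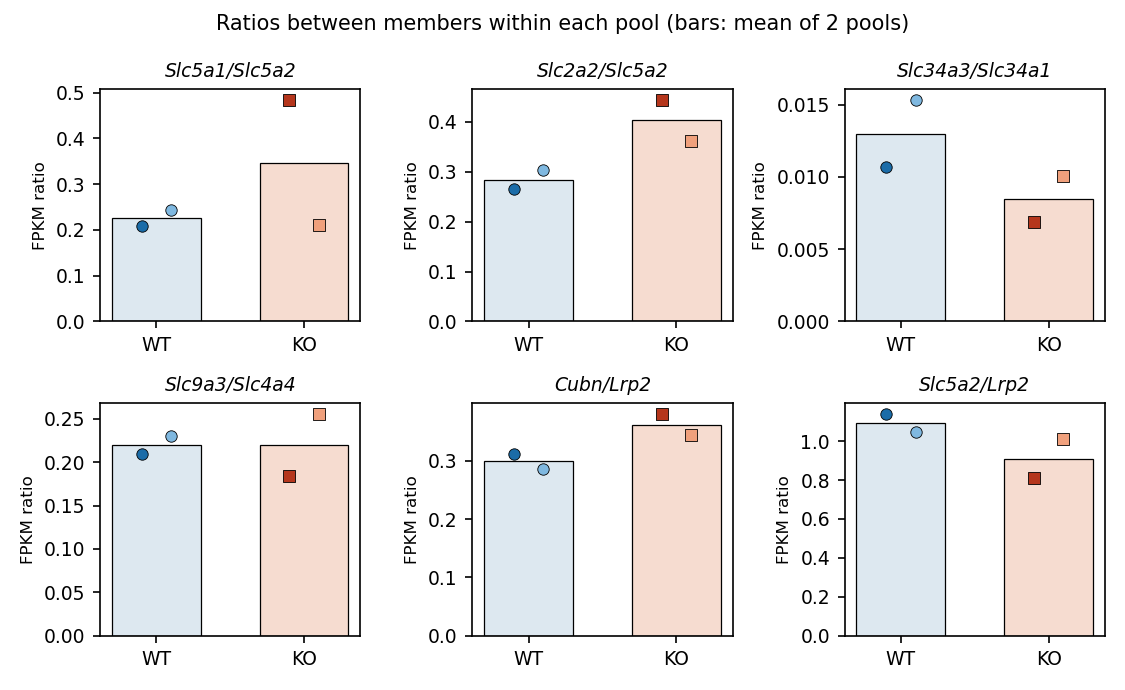
FPKM ratio of the named pair of members within each pool, WT (circles, dark replicate 1 and light replicate 2) and KO (squares, likewise), with bars at the mean of 2 pools. The ratios Slc2a2/Slc5a2 and Cubn/Lrp2 are higher in both KO pools, Slc34a3/Slc34a1 and Slc5a2/Lrp2 are lower, and Slc5a1/Slc5a2 and Slc9a3/Slc4a4 overlap.

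The order of the levels, which FPKM allows since it is per length, was alike in the pools at both ends. Slc34a1 was the highest in all 4 pools with a mean of 640 FPKM, rank 31 among all tested genes, and made up 62.4% and 62.1% of the summed FPKM of the 10 in WT and 47.1% and 59.2% in KO. Slc4a4 (112), Slc5a2 (85.8), Lrp2 (84.4) and Slc5a12 (55.8) followed, each with a range that overlapped that of its neighbour. A gap without overlap set these apart from Slc2a2 (28.01), Cubn (27.6), Slc9a3 (24.3) and Slc5a1 (22.6), whose ranges also overlapped one another in this order. Slc34a3, at 7.19, lay below all others in every pool.

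The pools of a group also differed from each other. WT replicate 1 was above WT replicate 2 in 9 of the 10 genes, against 50.7% of all tested genes, the exception being Slc34a3. KO replicate 2 was above KO replicate 1 in 7 of the 10, against 50.7% of all tested genes. KO replicate 1 was the lowest pool for 6 of the 10 and WT replicate 1 the highest for 6. Markers of other cells moved with the pools as well. The summed FPKM of 6 macrophage markers was 161 and 406 in WT and 204 and 199 in KO, and that of 5 fibroblast markers was 134 and 269 in WT and 161 and 181 in KO. In each list 1 gene was lower in KO without overlap, where 18.1% of all tested genes were. WT replicate 2, the lower WT pool for most members, was the highest pool in both. Dcn (decorin), a matrix proteoglycan, stood at 4.18 and 6.24 FPKM in WT and at 3.39 and 2.25 in KO (log2 fold change -0.78, limma adjusted p = 0.785, unadjusted p under 0.05). The 9 proximal tubule markers other than the members summed to 10342 and 5471 in WT and 6731 and 10542 in KO, most of it Kap. The 8 without Kap, a split made after the values were seen, summed to 1366 and 1084 in WT and 693 and 1225 in KO. Mme (neprilysin), a brush border peptidase, stood at 9.46 and 9.07 FPKM in WT and at 6.10 and 6.90 in KO (log2 fold change -0.48, limma adjusted p = 0.746, unadjusted p under 0.05). The 4 markers of the straight segment summed to 164 and 125 in WT and 88.5 and 138 in KO. KO replicate 1 was thus the lowest pool for the straight segment markers and the 8 markers without Kap. Over all 9 markers with Kap the lowest was WT replicate 2. The summed FPKM of the 10 members, 1438 and 1108.5 in WT and 775 and 1028 in KO, was also lowest in KO replicate 1. Slc34a1 made up 62.4% and 62.1% of that sum in WT and 47.1% and 59.2% in KO. The 5 red blood cell markers summed to 128 and 126 in WT and 64.6 and 179 in KO. Between these sums and the members no relation was tested.
The 7 tubular injury markers summed to 7592 and 8538 in WT and 9724 and 7514 in KO, most of it Spp1. Of the 7, 3 had KO above WT without overlap and 1 had it below, where 19.7% and 18.1% of all tested genes did so. Havcr1, for which the groups overlapped, stood at 210 and 393 FPKM in WT and at 249 and 105 in KO (log2 fold change -0.83, limma adjusted p = 0.807). Lcn2 (NGAL), a secreted marker of tubular injury, stood at 133 and 95.2 FPKM in WT and at 249 and 273 in KO (log2 fold change 1.21, limma adjusted p = 0.613, unadjusted p under 0.05). Krt20, a keratin of injured tubule, stood at 35.6 and 36.8 FPKM in WT and at 60.0 and 61.0 in KO (log2 fold change 0.73, limma adjusted p = 0.545, unadjusted p under 0.05). Vcam1, an adhesion molecule, stood at 14.6 and 31.0 FPKM in WT and at 10.5 and 2.59 in KO (log2 fold change -1.91, limma adjusted p = 0.785, unadjusted p under 0.05). The 5 endothelial markers summed to 43.7 and 56.7 in WT and 50.6 and 65.5 in KO, and the 4 podocyte markers to 53.5 and 50.3 in WT and 58.6 and 66.0 in KO, the latter without overlap. The 4 thick ascending limb markers summed to 1264 and 888 in WT and 1325 and 1022 in KO, and the 7 distal and collecting duct markers to 417.8 and 279 in WT and 418.1 and 372 in KO. The 5 neutrophil and T cell markers, with Ly6g at 0 in all pools, summed to 8.61 and 17.6 in WT and 9.18 and 20.2 in KO. The 5 adipocyte markers, nearly all of it Fabp4, summed to 10.2 and 13.1 in WT and 14.9 and 12.1 in KO. The part of any of these in the members' levels was not tested.

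**Figure D4:**
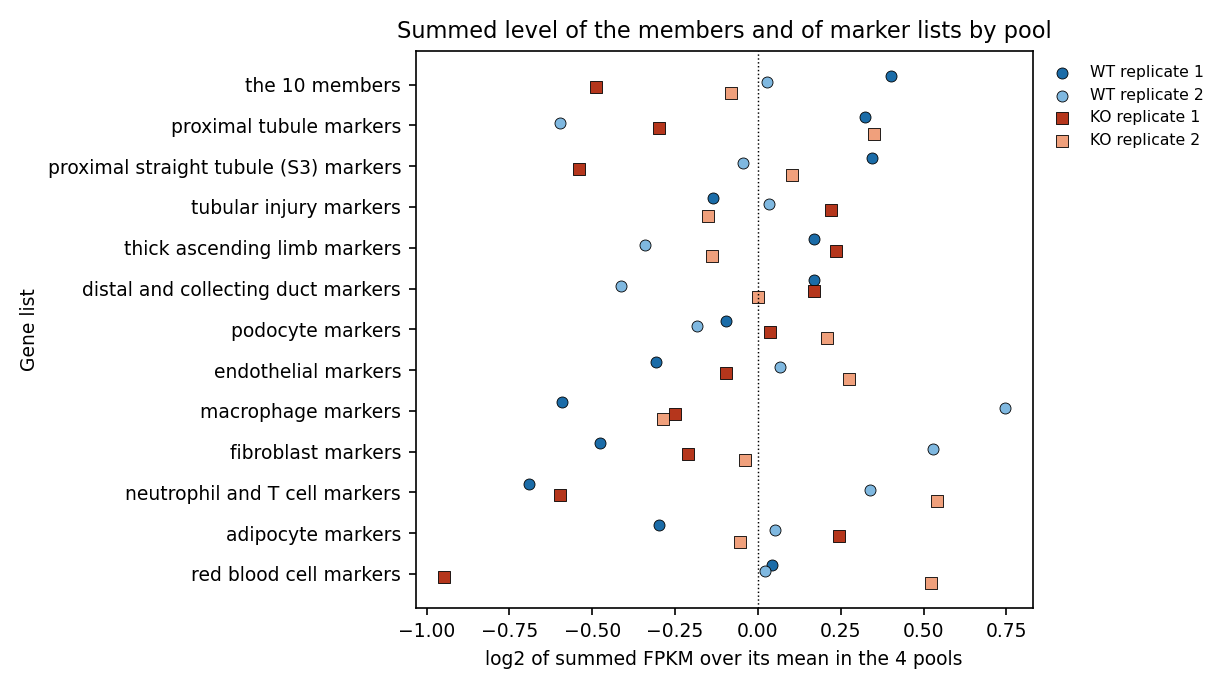
Log2 of the summed FPKM of each list in a pool over its mean in the 4 pools (circles WT, squares KO). KO replicate 1 is lowest for the 10 members and the straight segment (S3) markers, and WT replicate 2 is highest for the macrophage and fibroblast markers.

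The partners of the members were drawn from 4 lists of 46 genes, 45 of them tested. Their median log2 fold change was -0.015, 23 of the 45 had a lower fitted mean in KO (48.6% of all tested genes), none passed the adjusted threshold (limma), and 3 had an unadjusted p under 0.05, 1 lower and 2 higher, where 3.03% of all tested genes were lower and 3.29% higher. Both KO pools lay below both WT pools in 5 of the 45 and above in 8, where 18.1% and 19.7% of all tested genes did so.

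Of the 9 other sugar and monocarboxylate carriers, none had an unadjusted p under 0.05 and the median log2 fold change was 0.21. Slc5a10, a sodium cotransporter for mannose and fructose, had an FPKM of 76.0 and 34.7 in WT and of 228 and 68.0 in KO, with KO replicate 1 far above the rest. Slc2a1 (GLUT1), the facilitative glucose carrier of most cells, was at 25.3 and 26.9 in WT and at 31.0 and 42.7 in KO, without overlap (log2 fold change 0.47, limma adjusted p = 0.785). Slc5a8, the high-affinity lactate carrier, was at 35.7 and 18.3 in WT and at 24.3 and 22.6 in KO.

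Of the 10 other phosphate carriers and regulators, 1 had an unadjusted p under 0.05, and the median log2 fold change was -0.15. This was Slc20a2 (PiT-2), a sodium-phosphate carrier of another family, with an FPKM of 12.0 and 11.2 in WT and of 16.003 and 16.7 in KO. Its log2 fold change was 0.48 (limma adjusted p = 0.708), opposite in sign to those of Slc34a1 and Slc34a3. Of the genes for PDZ scaffolds of the brush border, Slc9a3r2 stood at 23.4 and 26.2 in WT and at 27.997 and 28.7 in KO, higher in KO without overlap (log2 fold change 0.19, limma adjusted p = 0.804). The groups overlapped for the other two, with Pdzk1 at 129 and 98.0 in WT and at 95.1 and 99.0 in KO, and Slc9a3r1 at 200.5 and 193 in WT and at 160 and 194 in KO. The receptor of parathyroid hormone, Pth1r, was at 250.1 and 204 in WT and at 199 and 209 in KO. Kl (klotho), the co-receptor of FGF23, was at 55.2 and 39.1 in WT and at 30.1 and 40.9 in KO.

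Of the 11 tested sodium, bicarbonate and water partners, 1 was lower and 1 higher at an unadjusted p under 0.05, and the median log2 fold change was 0.18. Car4, the membrane-bound carbonic anhydrase of the brush border, had an FPKM of 43.6 and 37.3 in WT and of 23.8 and 25.9 in KO (log2 fold change -0.69, limma adjusted p = 0.650). Chp1, a calcineurin-like protein that binds sodium-hydrogen exchangers, was at 69.8 and 51.8 in WT and at 116 and 93.4 in KO (log2 fold change 0.79, limma adjusted p = 0.760). The water channel Aqp1 was at 259 and 181 in WT and at 157 and 245 in KO.

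Of the 15 endocytic partners, none had an unadjusted p under 0.05, and the median log2 fold change was -0.022. Amn (amnionless), which carries cubilin to the membrane, was at 126 and 137 in WT and at 100.2 and 108 in KO, without overlap, with a log2 fold change of -0.34 (limma adjusted p = 0.786). Lrpap1, the chaperone of megalin, was at 92.4 and 73.4 in WT and at 79.3 and 75.9 in KO. The adaptor Dab2 was at 71.7 and 66.1 in WT and at 61.1 and 67.9 in KO, and the endosomal chloride-proton exchanger Clcn5 was at 12.2 and 11.7 in WT and at 9.91 and 13.5 in KO. Both of the latter overlapped between the groups, as did Lrpap1.

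**Figure D5:**
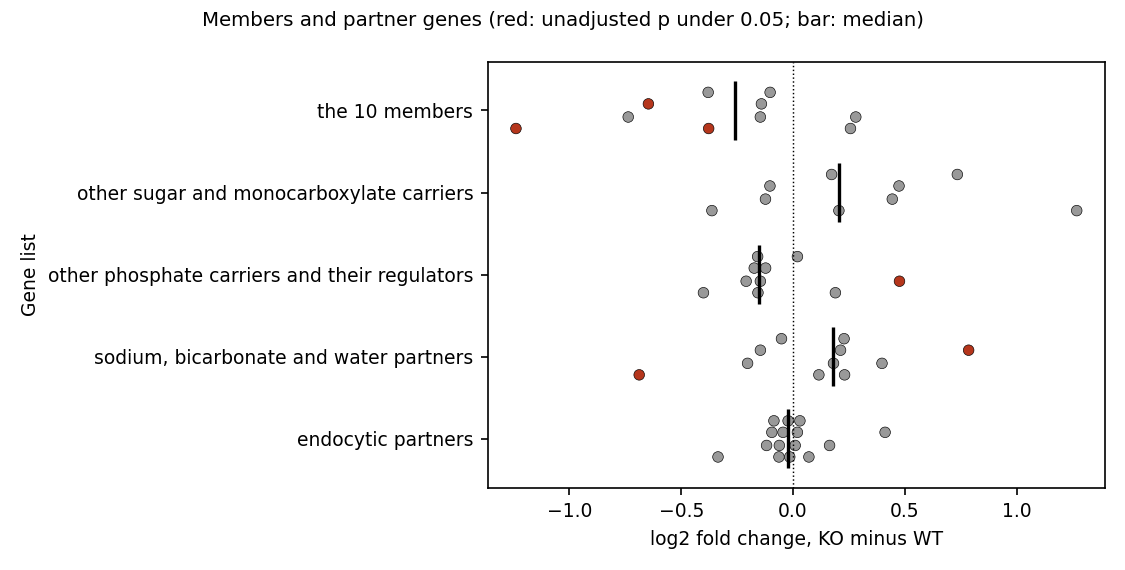
Log2 fold change (KO minus WT) of each member and of each tested gene of the 4 partner lists, with the median as a black bar and genes at an unadjusted p under 0.05 in red. The median is -0.26 for the members and -0.022 for the endocytic partners.

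The genes whose pattern over the 4 pools was nearest to the mean centred pattern of the 10 members were sought among 4793 other protein-coding genes whose mean FPKM reached 10. The 5 nearest by root mean square distance on the log2 scale were Ugt3a2 (0.023), Agps (0.025), Slc17a3 (0.026), Cyp2j5 (0.039) and Mep1a (0.041). Slc17a3 belongs to another family of sodium-phosphate carriers that moves organic anions, and Mep1a encodes a protease of the brush border. Ugt3a2 had an FPKM of 185 and 149 in WT and of 121 and 144 in KO. Among the members, Lrp2 lay nearest to that mean pattern (0.067) and Slc34a3 farthest (0.59), and 1991 of the 4793 genes lay nearer to it than the median member did (0.24).

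The 10 positions are identical to those of the GENCODE M21 annotation. Exons of Slc5a2 overlap those of BC017158 on the opposite strand over 20.6% of their bases, those of Slc34a1 overlap Pfn3 over 11.7% and those of Cubn overlap Gm13270 over 2.46%. BC017158 was at 4.90 to 5.54 FPKM, Pfn3 at 0 in all pools and Gm13270 at 0.0707 to 0.123. The library kit as described does not mark strand, so reads from these overlaps cannot be assigned to a strand.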

How the data were processed

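RNA was poly-A selected and sequenced by a company. The submitters' processing notes name HISAT2 2.0.5 and GRCm38.p6, and the counting tool is not given in the sources used here. The authors deposited 1 table of FPKM, which are fragments scaled by gene length and library size, with the gene length beside them. FPKM times length gave whole reads (within 0.01) for 100% of nonzero values, and the library totals this implies scale with size factors of the median-of-ratios kind.

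Values were compared as log2(FPKM + 0.5), which understates the change of low genes, with limma 3.58.1 in R 4.3.3 (eBayes with trend, no covariate, two-sided, Benjamini-Hochberg) over the 15414 genes whose mean FPKM reached 0.5. The threshold was the study's, an adjusted p under 0.05 with any fold change. At this threshold the study reported differentially expressed genes for the same comparison, whereas none passed here. Its model is not named, and the cause of the difference was not tested. The fit was tested on simulated data. Ratios within pools were compared by exact permutation. A spread between pools is the only error covered.

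Named were all 10 members, genes of 16 lists (those at an unadjusted p under 0.05 first) and the 5 genes nearest in pattern. A few items are not reported here. The members and lists were chosen with earlier results of these data known. Alternatives were other pseudocounts, filters and scaling, voom weights on recovered reads, no trend, protein-coding genes only, a replicate block and each pool left out. Other computations used Python 3.11.15, numpy 2.4.6 and pandas 2.3.3.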

Additional observations from a re-analysis of the deposited data

How the results depend on the processing

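The 10 log2 fold changes kept their sign and their side of the threshold under all 9 alternatives that used all 4 pools (limma adjusted p from 0.711 to 0.941). With a pool left out, where the lone pool is assumed to vary like the other group, 36 of 40 values did so (limma adjusted p from 0.384 to 0.994). The signs turned for Slc5a1 without KO replicate 2 (0.23, range -0.51 to 0.23), for Slc9a3 (-0.046, range -0.046 to 0.56) and Slc4a4 (-0.098, range -0.098 to 0.66) without WT replicate 2, and for Cubn without WT replicate 1 (0.026, range -0.23 to 0.026), and the cause was not tested. No gene passed the adjusted threshold under any alternative, and at an unadjusted p there were 3 members and 974 genes in all. The members at an unadjusted p numbered 1 with the replicate block (932 of all genes), 2 with voom weights (970) and 4 with quantile normalization (976). They numbered 2 with any one pool left out, where all genes numbered 1720 and 687 without WT replicate 1 or 2 and 727 and 779 without KO replicate 1 or 2. Without a filter all genes numbered 1538, with 3 members. Partner genes at an unadjusted p, 3 of 45, numbered 7 with the replicate block, 6 with voom weights, and 5 with quantile normalization, with protein-coding genes only or without WT replicate 1. Marker genes at an unadjusted p numbered 5 in all, with Dcn, Mme and Vcam1 lower in KO and Lcn2 and Krt20 higher. Of all tested genes 3.03% were lower and 3.29% higher. The marker genes numbered between 4 (replicate block) and 6 (quantile normalization) under the alternatives that used all 4 pools. Their number moved further with any pool but WT replicate 2 left out, where 1 group holds a single pool. Members with both KO pools below both WT pools numbered 7 with quantile normalization, the added one being Cubn, where 18.6% of all tested genes did so. With a pool left out they numbered 6 or 7, where 32.0% to 35.9% of all tested genes did so, since fewer pools have to be in order.

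Deviations of same-numbered pools correlated at -0.0017 over 15414 genes, so they showed no shared deviation. This single correlation cannot show whether same-numbered pools were handled together. With the replicate block the number of members past the threshold was 0. The difference in log2 ratio (KO minus WT) ranged, with a pool left out, from -0.095 to 1.11 for Slc5a1/Slc5a2, 0.36 to 0.65 for Slc2a2/Slc5a2, -0.89 to -0.34 for Slc34a3/Slc34a1, -0.26 to 0.22 for Slc9a3/Slc4a4, 0.21 to 0.35 for Cubn/Lrp2 and -0.43 to -0.11 for Slc5a2/Lrp2.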

Other observations

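The order of the KO pools was not the same for all 10 members. KO replicate 1 was the lower KO pool for 7 of the 10, and the higher one for Slc5a1, at 27.5 against 16.2 FPKM, for Slc4a4, at 129.3 against 112.6, and for Cubn, at 26.8 against 26.3. Slc5a10, which is no member, was also higher there, at 228 in KO replicate 1 and 68.0 in KO replicate 2. Of the markers of the straight segment, Cyp7b1 was also higher in KO replicate 1, at 12.3 against 6.80, whereas Slc7a13 was lower, at 12.9 against 44.0, as were Atp11a, at 61.1 against 82.0, and Slc22a7, at 2.32 against 5.37. These values were picked after they were seen and were not tested.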
